A study of Homo sapiens with 3 samples.

Results

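The miRNAs cut from 8 hairpin precursors in an intron of CLCN5 on the X chromosome were examined in small RNA libraries of 3 human cancer cell lines. They comprise the miR-532, miR-660 and miR-500 cluster. The 10 mature miRNAs described here were chosen by name, as a list of cluster members, out of the 2588 mature miRNAs in the deposited tables: hsa-miR-532-5p, hsa-miR-532-3p, hsa-miR-660-5p, hsa-miR-362-5p, hsa-miR-362-3p, hsa-miR-500a-3p, hsa-miR-501-3p, hsa-miR-501-5p, hsa-miR-502-3p and hsa-miR-188-5p. The 8 precursors give 6 further listed arms, and their values are given beside the members. The study asked how blocking miR-21-5p affects cancer cells, and these libraries recorded the miRNAs of unmodified parental cells. C643 cells come from a thyroid cancer, ES-2 cells from an ovarian cancer and Huh-7 cells from a liver cancer. All 3 lines were grown in DMEM with serum, received no treatment and were harvested at the same time after seeding, and each line is represented by 1 library without replicates. A difference between libraries therefore has no replicate check, and no test of a difference between the lines was possible. All intervals below are 95% intervals and cover counting error only.

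MicroRNAs are short RNAs that guide repression of mRNAs, and they find their targets mainly through the seed, bases 2 to 8 from the 5′ end. A primary transcript is cropped to a hairpin by the nuclease Drosha, the loop is removed by Dicer, and usually 1 of the 2 arms of the remaining duplex is loaded into Argonaute while the other is degraded. MicroRNAs that lie close together in an intron can be cut from a single transcript, yet the mature products of a single transcript need not accumulate equally. CLCN5, the host of this cluster, encodes a chloride/proton exchanger of endosomes that is known from the kidney.

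The mature sequences of the members, taken from RefSeq (GRCh38.p14, plus strand of the X chromosome), show how alike several of them are. Sequences were found for 9 of the 10 members and for 15 of the 16 arms. Those of the members run 5′ to 3′ as follows, with the seed in capitals:
hsa-miR-532-5p: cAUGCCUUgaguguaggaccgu
hsa-miR-532-3p: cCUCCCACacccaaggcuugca
hsa-miR-188-5p: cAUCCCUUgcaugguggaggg
hsa-miR-362-5p: aAUCCUUGgaaccuaggugugagu
hsa-miR-362-3p: aACACACCuauucaaggauuca
hsa-miR-501-5p: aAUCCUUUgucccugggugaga
hsa-miR-500a-3p: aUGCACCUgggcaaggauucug
hsa-miR-501-3p: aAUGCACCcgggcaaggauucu
hsa-miR-502-3p: aAUGCACCugggcaaggauuca

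miR-660-5p was without an entry. The 9 sequences carried 8 distinct seeds, and the 1 seed shared by 2 members was AUGCACC, of miR-501-3p and miR-502-3p. miR-500a-3p, which starts 1 base further in, differed from each of these by 1 mismatch over 21 aligned bases, and the pair differed from each other by 2 mismatches over 22. The run CAAGGAUUC, which stands near the 3′ end of 5 arms of the cluster (miR-362-3p, miR-500a-3p, miR-500b-3p, miR-501-3p and miR-502-3p), was found in 5 of all 2370 mature miRNAs in the RefSeq table (0.211%), so all its occurrences lay in the cluster. The run AUCCUU, which stands at the 5′ end of 5 arms of the same precursors, was found in 17 of 2370 (0.717%). Both were searched on the RNA's own strand. The reverse complement of the second run, AAGGAU, lies within the first, so the runs are complementary over 6 bases. Outside the members, the seed of miR-362-5p is also that of miR-500b-5p, the seed of miR-362-3p that of miR-329-3p, and the seed of miR-188-5p that of miR-6866-3p. miR-329-3p had 31, 0 and 1 reads in C643, ES-2 and Huh-7, and miR-6866-3p had 1, 6 and 0 reads.

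A few other arms set limits on what the tables can tell apart, and are printed for that reason:
hsa-miR-500a-5p: uAAUCCUUgcuaccugggugaga
hsa-miR-500b-5p: aAUCCUUGcuaccugggu
hsa-miR-500b-3p: gCACCCAGgcaaggauucug

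The annotated miR-500b-5p is 18 bases long and lies whole within miR-500a-5p, and all 23 bases of miR-500a-5p also occur in the miR-500b hairpin. A read of this sequence cannot be assigned to 1 of the 2 loci. On the 3p side, 21 of the 22 bases of miR-502-3p occur as 1 run in the miR-500a hairpin, so a read of miR-502-3p that is shorter by its last base matches both. How the authors placed such reads was not stated in the sources used here. The split of reads among miR-500a, miR-500b, miR-501 and miR-502 is therefore uncertain, and their sums are given beside the single values.

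The precursors lie in the order miR-532, miR-188, miR-500a, miR-362, miR-501, miR-500b, miR-660 and miR-502 on the plus strand, the strand of CLCN5 (GENCODE 29, GRCh38). They span 11536 bases from MIR532 (chrX:50003148-50003238) to MIR502 (chrX:50014598-50014683). MIR188 lies at chrX:50003503-50003588, MIR500A at chrX:50008431-50008514, MIR362 at chrX:50008964-50009028, MIR501 at chrX:50009722-50009805, MIR500B at chrX:50010672-50010750 and MIR660 at chrX:50013241-50013337. All 8 fall in 1 intron of 117001 bases (chrX:49925315-50042315), which is intron 3 of 2 annotated CLCN5 transcripts and intron 2 of 1 other. These are 3 of the 9 transcripts of the gene, and no transcript has an exon at any of the hairpins. The largest gap, 4842 bases, separates miR-188 from miR-500a, and the smallest, 264 bases, separates miR-532 from miR-188. Each member has a single locus in the deposited tables, on chromosome X.

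The libraries of C643, ES-2 and Huh-7 held 8183100, 1663181 and 2173587 reads on miRNAs. Levels are given in RPM, the reads of a miRNA scaled to 1000000 miRNA reads of its library. For a miRNA without a read the limit was set at 3 reads, which is 0.367, 1.80 and 1.38 RPM. The depth of C643 did not show as finer detection: 649 miRNAs had a read there, against 608 for ES-2 and 858 for Huh-7, and only 88 miRNAs had 1 to 7 reads against 184 with 16 to 63 reads (255 against 87 in ES-2, 303 against 161 in Huh-7). Whether reads of C643 are copies of fewer molecules was not tested, so intervals were also taken with the reads of each library divided by the lower edge of the doubling class that held most miRNAs (32, 2 and 4 for C643, ES-2 and Huh-7). These are called wide intervals below. They were taken for changes of cluster share, changes of arm ratio and the arm ratio of miR-362. The other intervals of C643, on its levels, order and folds, treat each read as a separate molecule and are too narrow if reads are copies. The liver markers miR-122-5p, miR-885-5p, miR-192-5p and miR-194-5p together took 15.5% of the reads of Huh-7, against 0.0207% in C643 and 0.0132% in ES-2, where miR-885-5p was at 0. Of 4 blood cell markers, C643 held 1 with a read, ES-2 held 3 and Huh-7 held 1, at 2.93, 328 and 0.920 RPM in sum, and the sum of ES-2 was nearly all miR-142-3p (542 reads). The 2 muscle markers summed to 1.22, 1.80 and 12.9 RPM, and the neuronal miR-124-3p was at 0 in every library. No marker of thyroid or ovary was listed.

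The cluster was a small fraction of the miRNA pool in each library, and by far the largest in Huh-7. The 10 members summed to 1705 reads in C643, 0.0208% of the library (Wilson interval 0.0199 to 0.0218). Their sum was 506 reads in ES-2, 0.0304% (0.0279 to 0.0332), and 10747 reads in Huh-7, 0.494% (0.485 to 0.504). A read covers a whole miRNA, so RPM needed no correction for length. The share of the library in Huh-7 was 16.3-fold that of ES-2 (14.9 to 17.8) and 23.7-fold that of C643 (22.5 to 24.99). On the deposited scale, whose columns do not share a total, the same folds were 8.61 (7.88 to 9.44) and 15.1 (14.4 to 15.9). ES-2 and C643 lay close together, with a fold of ES-2 over C643 of 1.46 by share (1.32 to 1.61) and 1.76 on the deposited scale (1.59 to 1.94). In the bulk libraries, fewer cells with a miRNA and less of it per cell cannot be told apart.

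miR-532-5p was the most abundant member in every library. It had 728, 135 and 3190 reads in C643, ES-2 and Huh-7, or 89.0 RPM (82.7 to 95.7), 81.2 RPM (68.6 to 96.1) and 1468 RPM (1418 to 1519). Its rank among the miRNAs was 158, 147 and 60. The levels of C643 and ES-2 were indistinguishable by counting error, and Huh-7 was higher than both.

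The 3p arms of miR-501 and miR-500a followed. miR-501-3p had 440, 101 and 1799 reads in C643, ES-2 and Huh-7, or 53.8 RPM (49.0 to 59.0), 60.7 RPM (50.0 to 73.8) and 828 RPM (790 to 867). miR-500a-3p had 241, 81 and 1958 reads, or 29.5 RPM (26.0 to 33.4), 48.7 RPM (39.2 to 60.5) and 901 RPM (862 to 942). miR-501-3p thus did not differ beyond counting error between C643 and ES-2 by share, while miR-500a-3p was lower in C643. No wide interval was taken for this difference.

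miR-502-3p, which shares its seed with miR-501-3p, separated C643 from ES-2 more widely. It had 54, 74 and 885 reads in C643, ES-2 and Huh-7, or 6.60 RPM (5.06 to 8.61), 44.5 RPM (35.4 to 55.9) and 407 RPM (381 to 435). miR-501-3p exceeded miR-502-3p by 8.15-fold in C643 (6.13 to 11.02), 1.36-fold in ES-2 (1.001 to 1.87) and 2.03-fold in Huh-7 (1.87 to 2.21). No wide interval was taken for these ratios, and that of C643 rests on 54 reads of miR-502-3p. The summed level of this shared seed was 60.4 RPM in C643, 105 RPM in ES-2 and 1235 RPM in Huh-7, and does not depend on how reads were split within this pair.

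The 5p arms of miR-660 and miR-362 were close to each other in Huh-7 and ES-2 but not in C643. miR-660-5p had 140, 41 and 1233 reads in C643, ES-2 and Huh-7, or 17.1 RPM (14.5 to 20.2), 24.7 RPM (18.2 to 33.4) and 567 RPM (536 to 600). miR-362-5p had 40, 47 and 1157 reads, or 4.89 RPM (3.59 to 6.66), 28.3 RPM (21.3 to 37.6) and 532.3 RPM (503 to 564). The other arm of the second precursor, miR-362-3p, had 62, 15 and 122 reads, or 7.58 RPM (5.91 to 9.71), 9.02 RPM (5.47 to 14.9) and 56.1 RPM (47.0 to 67.0). This arm spanned the smallest range of levels among the members with reads in all libraries.

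The 3 remaining members were without a read in C643. miR-501-5p had 6 reads in ES-2 and 238 reads in Huh-7, or 3.61 RPM (1.65 to 7.87) and 109 RPM (96.4 to 124.3). miR-532-3p had 2 and 137 reads, or 1.20 RPM (0.330 to 4.38) and 63.0 RPM (53.3 to 74.5). miR-188-5p had 4 and 28 reads, or 2.41 RPM (0.935 to 6.18) and 12.9 RPM (8.91 to 18.6). By share, all 3 were thus higher in Huh-7 than in ES-2 by more than counting error, and in C643 their upper limit of 3 reads corresponds to 0.367 RPM, or to 11.7 RPM if the reads are divided by 32.

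**Figure D1:**
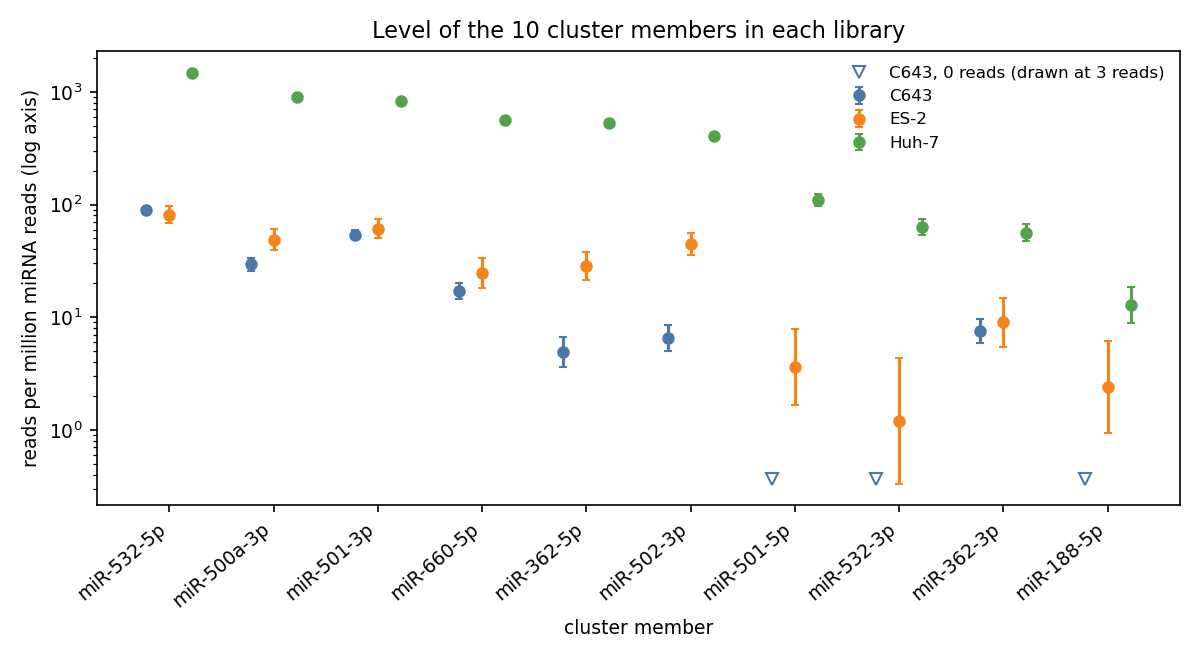
RPM (log axis) of the 10 members in C643, ES-2 and Huh-7, ordered by their level in Huh-7, with Wilson 95% intervals as bars. Every member lies highest in Huh-7, from 12.9 RPM for miR-188-5p to 1468 RPM for miR-532-5p, and the open triangles mark the 3 members with 0 reads in C643, drawn at 3 reads.

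Within each library, the members kept a broadly similar order. miR-532-5p led in all 3, ahead of the next member by 1.65-fold in C643 (1.47 to 1.87), 1.34-fold in ES-2 (1.03 to 1.75) and 1.63-fold in Huh-7 (1.54 to 1.72). The next member was miR-501-3p in C643 and ES-2 and miR-500a-3p in Huh-7, where it exceeded miR-501-3p by 1.09-fold (1.02 to 1.16). Each member was compared with the next in the order, and some of these pairs did not differ beyond counting error. In C643 they were miR-362-3p with miR-502-3p and miR-502-3p with miR-362-5p, though miR-362-3p exceeded miR-362-5p by 1.55-fold (1.03 to 2.37). In ES-2 they were miR-501-3p with miR-500a-3p, miR-500a-3p with miR-502-3p, and miR-362-5p with miR-660-5p. Across the first of these pairs, miR-501-3p exceeded miR-502-3p by 1.36-fold in ES-2 (1.001 to 1.87). Neighbours among the 4 members of ES-2 from miR-362-3p downward did not differ either, and the ends of that run were not compared. In Huh-7 the pairs were miR-660-5p with miR-362-5p and miR-532-3p with miR-362-3p.

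Scaling of a library cannot change the make-up of the cluster, though the placing of reads at several loci can. By reads, this make-up differed between the libraries, among others in miR-532-5p, miR-502-3p and both arms of miR-362. For miR-362-5p every wide interval included no difference. miR-532-5p made up 42.7% of the cluster's reads in C643 (40.4 to 45.1), 26.7% of those in ES-2 (23.0 to 30.7) and 29.7% of those in Huh-7 (28.8 to 30.6). miR-501-3p made up 25.8%, 20.0% and 16.7% in C643, ES-2 and Huh-7, and miR-500a-3p 14.1%, 16.01% and 18.2%. The leading 3 members thus accounted for most of the cluster in every library.

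Among the others, miR-502-3p took 3.17% of the cluster in C643 (2.44 to 4.11), 14.6% of it in ES-2 (11.8 to 18.0) and 8.23% of it in Huh-7 (7.73 to 8.77). miR-362-5p took 2.35%, 9.29% and 10.8%, while miR-362-3p took 3.64%, 2.96% and 1.135%. miR-660-5p was steadier, at 8.21%, 8.10% and 11.5%. The minor members miR-501-5p, miR-532-3p and miR-188-5p held 1.19%, 0.395% and 0.791% of the reads in ES-2 and 2.21%, 1.27% and 0.261% of those in Huh-7.

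Compared by the log2 ratio of odds, 4 of 10 members differed in their share of the cluster between ES-2 and Huh-7 beyond counting error, namely miR-660-5p, miR-362-3p, miR-502-3p and miR-188-5p. With the wide intervals 2 remained, miR-362-3p and miR-502-3p, both holding a larger share in ES-2. Between C643 and Huh-7, 7 of the 7 members with reads in both differed, and with the wide intervals 1 remained, miR-532-5p, whose share was larger in C643. Between C643 and ES-2, 4 of 7 differed, miR-532-5p, miR-501-3p, miR-502-3p and miR-362-5p. The 2 that remained with the wide intervals were miR-532-5p, larger in C643, and miR-502-3p, larger in ES-2. The wide interval of miR-502-3p, -4.66 to -0.12, rests on 54 reads in C643 before division and is a rough approximation at so few. Summed over miR-500a, miR-500b, miR-501 and miR-502, the 3p arms made up 43.7% of the reads of all 16 arms in C643, 50.7% of those in ES-2 and 42.2% of those in Huh-7. In percentage points this range was narrower than that of miR-502-3p alone, whose percents are of the 10 members.

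**Figure D2:**
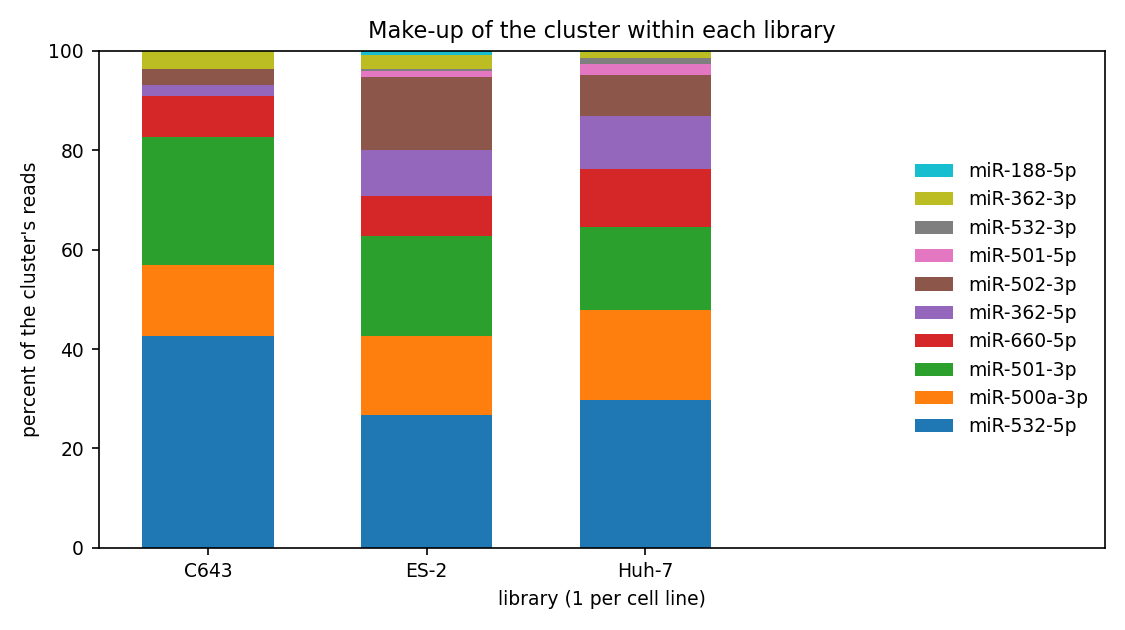
Percent of the cluster's reads held by each of the 10 members in C643, ES-2 and Huh-7, as stacked bars that start at 0. miR-532-5p takes 42.7% in C643 against 26.7% and 29.7% in the others, and miR-502-3p takes 3.17% in C643 against 14.6% in ES-2.

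The arms of a hairpin arise in equal number, so the ratio of 5p to 3p reads needs no scaling between libraries. In miR-532 the 5p arm dominated in every library. Its 5p reads exceeded the 3p reads 23.3-fold in Huh-7 (19.6 to 27.8) and 67.5-fold in ES-2 (18.3 to 563). In C643 the 3p arm had 0 reads, and the exact interval of the ratio began at 197. In miR-660 the 5p arm led 112-fold in Huh-7 (62.4 to 225), and with 0 reads on the 3p arm the intervals began at 10.6 in ES-2 and at 37.5 in C643. miR-188 gave 5p reads alone, 4 of them in ES-2 and 28 of them in Huh-7, and neither arm had a read in C643.

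In miR-500a, miR-501 and miR-502 the 3p arm dominated in every library. The 3p reads of miR-500a exceeded its 5p reads 20.2-fold in Huh-7 (16.5 to 25.01), and with 0 reads on the 5p arm the intervals began at 21.5 in ES-2 and at 64.8 in C643. In Huh-7 the 97 reads of miR-500a-5p cannot be told apart from the 125 of miR-500b-5p. The interval of that ratio does not cover this split. For miR-501 the 3p reads led 7.56-fold in Huh-7 (6.60 to 8.69) and 16.8-fold in ES-2 (7.47 to 47.0), and the interval began at 119 in C643, where the 5p arm had 0 reads. For miR-502 they led 13.2-fold in Huh-7 (10.3 to 17.2), 74-fold in ES-2 with 1 read on the 5p arm (12.9 to 2962) and 3.86-fold in C643 (2.11 to 7.52). Among these precursors, only miR-502 had a minor arm that was more prominent in C643 than in Huh-7, and this rests on 14 reads of miR-502-5p.

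Of the precursors of the members, miR-362 was the 1 whose arm with more reads differed between libraries. Its 5p arm held 39.2% of 102 reads in C643 (30.3 to 48.9), 75.8% of 62 reads in ES-2 (63.8 to 84.8) and 90.5% of 1279 reads in Huh-7 (88.7 to 91.95). The 3p arm led in C643 by 1.55-fold (1.03 to 2.37), a lead that rests on 62 against 40 reads and has a wide interval from 0.164 to 14.7, so it is not beyond counting error if the reads are copies. By reads, the 5p arm led in the other 2 libraries, 3.13-fold for ES-2 (1.72 to 6.03, wide interval 1.38 to 7.13) and 9.48-fold for Huh-7 (7.86 to 11.5, wide interval 6.53 to 13.8). The longest run shared with the hairpins of miR-500a, miR-500b or miR-502 was 8 bases for miR-362-5p and 10 bases for miR-362-3p, and the miR-501 hairpin was not analysed here.

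Changes of the 5p to 3p ratio between libraries were set beside those of all precursors with at least 10 reads on each arm in both libraries, called at 1 or more on the log2 scale in either direction. The log2 ratio of miR-362 was lower in C643 than in Huh-7 by a change of -3.88 (-4.51 to -3.24, wide interval -7.17 to -0.59), and 0 of the 82 precursors had a change larger in size, while 53.7% of them were called. It was lower in ES-2 than in Huh-7 by a change of -1.60 (-2.48 to -0.72, wide interval -2.90 to -0.30), where 3 of 57 precursors changed more and 26.3% were called. Between C643 and ES-2 the change was -2.28 (-3.30 to -1.26), its wide interval ran from -5.73 to 1.17, 7 of 72 precursors changed more and 43.1% were called. The log2 ratio of miR-502 was higher in C643 than in Huh-7 by 1.78 (0.86 to 2.70, wide interval -3.07 to 6.63), 22 of 82 precursors changed more, and with the arms of miR-500a, miR-500b, miR-501 and miR-502 summed the change was -2.62, in the other direction. Arm ratios shifted widely between C643 and the other libraries over all precursors, so the miR-502 change did not stand apart from them.

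The arms outside the list of members were minor. The 6 of them held 44, 5 and 337 reads in C643, ES-2 and Huh-7, which was 2.52%, 0.978% and 3.04% of the reads of all 16 arms. miR-500b-3p had 30, 3 and 37 reads in C643, ES-2 and Huh-7, miR-502-5p had 14, 1 and 67 reads, and miR-660-3p had 0, 0 and 11 reads. miR-500a-5p was read in Huh-7 alone, with 97 reads, miR-500b-5p had 0, 1 and 125 reads, and miR-188-3p had no read in any library. Since the sequences of miR-500a-5p and miR-500b-5p cannot be separated, the 77.2% of reads on the 5p arm of miR-500b in Huh-7 (125 of 162 reads, 70.1 to 83.0) includes an unknown number from miR-500a. Summed over both precursors, the 5p arm held 222 of 2217 reads in Huh-7, 10.0% (8.83 to 11.3), 1 of 85 in ES-2, 1.18% (0.208 to 6.37), and 0 of 271 in C643, 0% (0 to 1.40).

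Minor arms were sparse in C643, the deepest library. Of the 16 arms, at any depth of the precursor, C643 had 7 at 0, ES-2 had 3 and Huh-7 had 1. Of the cluster's precursors with at least 100 reads in C643, miR-532, miR-500a, miR-501 and miR-660 had an arm at 0 and miR-362 did not. No cluster precursor with at least 100 reads in ES-2 or Huh-7 had an arm at 0. Over all precursors with at least 100 reads, 29.2% had an arm at 0 in C643 (52 of 178), 15.7% did in ES-2 (17 of 108) and 19.0% did in Huh-7 (28 of 147). The absence of miR-532-3p, miR-501-5p and miR-500a-5p reads in C643 stands beside this pattern of the whole library, and its part in their values was not tested.

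**Figure D3:**
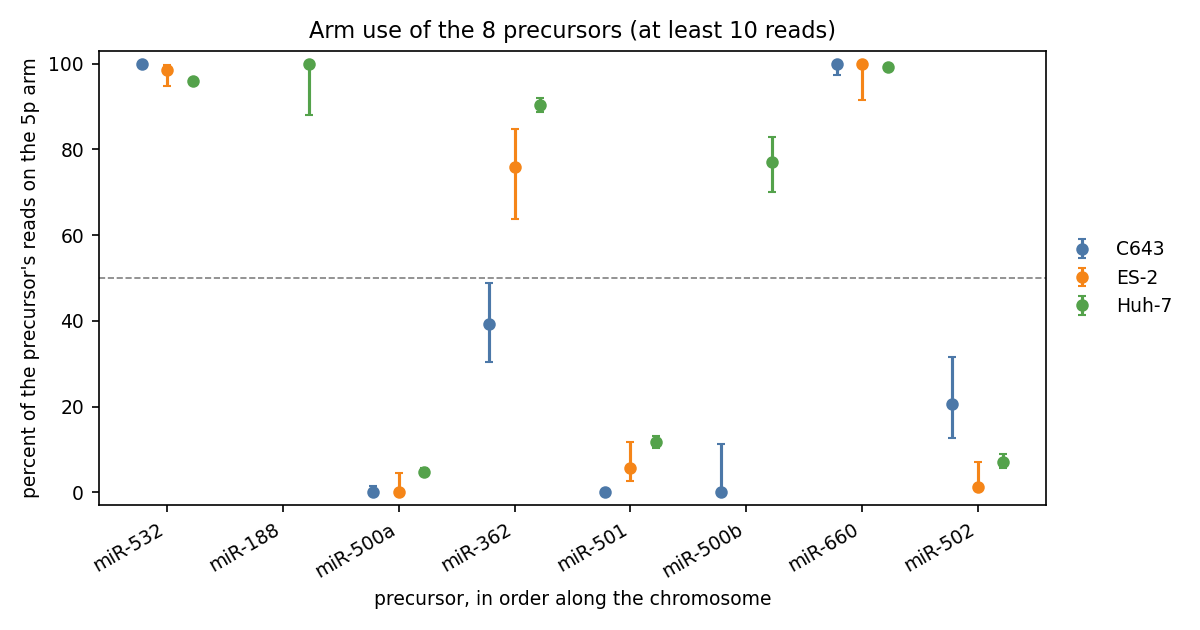
Percent of each precursor's reads on the 5p arm in C643, ES-2 and Huh-7, in order along the chromosome, with Wilson 95% intervals and with precursors of fewer than 10 reads in a library left out. miR-532 and miR-660 stay near the top and miR-500a and miR-501 near the bottom in every library, whereas miR-362 runs from 39.2% for C643 to 75.8% for ES-2 and 90.5% for Huh-7.

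Levels did not follow the position along the cluster in a steady slope. miR-532, at the start, was the highest precursor in each library, at 89.0, 82.4 and 1531 RPM over both arms in C643, ES-2 and Huh-7. miR-188, which begins 0.355 kb downstream of the start of miR-532, had 0, 2.41 and 12.9 RPM and was thus the lowest in C643 and Huh-7, and level with miR-500b in ES-2. miR-500a (29.5, 48.7 and 945 RPM), miR-501 (53.8, 64.3 and 937 RPM) and miR-660 (17.1, 24.7 and 572 RPM) lie 5.28, 6.57 and 10.1 kb from the start. miR-362, between miR-500a and miR-501 at 5.82 kb, had 12.5, 37.3 and 588 RPM, below both in every library. miR-500b, between miR-501 and miR-660, had 3.67, 2.41 and 74.5 RPM, and the last precursor, miR-502 at 11.45 kb, had 8.31, 45.1 and 438 RPM.

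**Figure D4:**
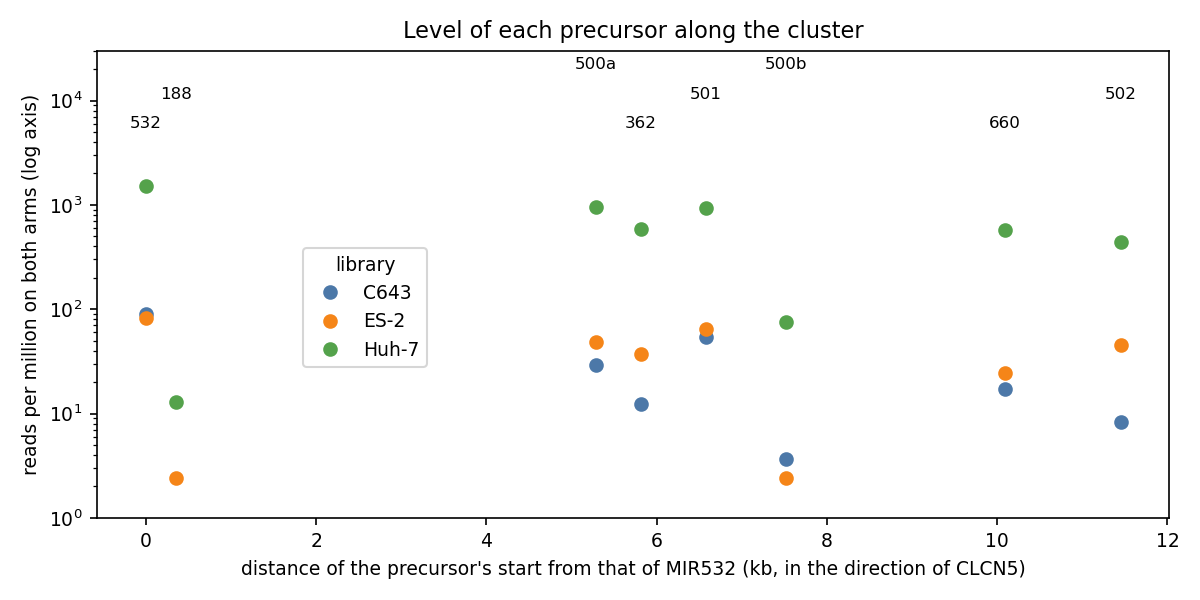
RPM on both arms of each precursor (log axis) against the distance of its start from that of MIR532 in kb, for C643, ES-2 and Huh-7, with precursors named above by their numbers and those without a read left out. Levels drop from miR-532 to the neighbouring miR-188, from miR-500a to miR-362 and from miR-501 to miR-500b in every library. The points of Huh-7 lie above those of the other libraries at each precursor.

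ES-2 and Huh-7 were deposited in a shared table. All 10 members were higher in Huh-7 than in ES-2 by 1 or more on the log2(value + 1) scale, against a background of 40.3% of the 390 miRNAs that reached 10 in either library. By share of the library all 10 were higher by 1 or more, against 60.6% of 437 miRNAs. The median difference by share was -4.17 for the members and -1.65 over all 437. Of the members, 9 passed the limit of 10 on the deposited scale, and 2 of these passed through Huh-7 alone. By share all 10 passed, 4 of them through Huh-7 alone. Differences of the members, ES-2 minus Huh-7 on the deposited log2 scale, ran from -4.05 for miR-532-3p to -1.23 for miR-188-5p with a median of -3.26, while the median over all 390 miRNAs was -0.54. Beyond the median lay miR-500a-3p (-3.27), miR-362-5p (-3.28), miR-660-5p (-3.56) and miR-501-5p (-3.72), and short of it miR-532-5p (-3.25), miR-501-3p (-2.84), miR-502-3p (-2.26) and miR-362-3p (-1.63). As folds of share, Huh-7 exceeded ES-2 by 18.1 for miR-532-5p (15.2 to 21.6), 18.8 for miR-362-5p (14.1 to 25.8) and 6.22 for miR-362-3p (3.63 to 11.5). The least abundant member, miR-188-5p, had a fold of 5.36 (1.87 to 21.0) by share and of 2.84 on the deposited scale (0.993 to 11.1), so its difference on the deposited scale was not beyond counting error. An exact binomial test for equal deposited values was run on the recovered reads, with Benjamini-Hochberg adjustment. It called all 9 tested members higher in Huh-7 (largest adjusted p = 9.45e-07), among them the 2 that passed through Huh-7 alone. Of all 390 miRNAs it called 344, with 210 higher in Huh-7 and 134 higher in ES-2. The test compares 2 libraries, not 2 cell lines.

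**Figure D5:**
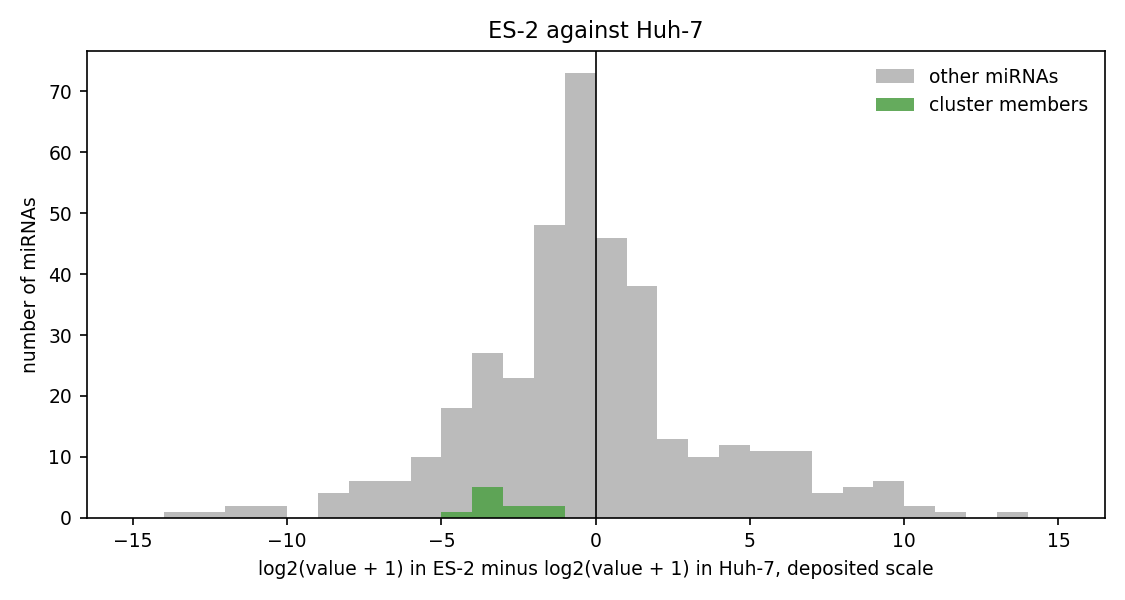
Number of miRNAs by their log2(value + 1) difference, ES-2 minus Huh-7, in bins of width 1 on the deposited scale, with the 10 cluster members (1 of which lies below the limit of 10) in green in front of the other miRNAs in grey. The members fall between -4.05 and -1.23, to the left of the median of -0.54, while differences of other miRNAs spread to both sides.

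C643 was deposited in a table of its own, so its levels against the others are described and not tested. All 10 members were higher in Huh-7 than in C643 by 1 or more, against 39.3% of 399 miRNAs on the deposited scale and 50.2% of 442 by share. Their differences, C643 minus Huh-7, ran from -6.09 for miR-501-5p to -2.10 for miR-362-3p with a median of -4.28, and the median over all 399 miRNAs was -0.21. Of the members, 9 passed the limit of 10 on the deposited scale, and 5 of these through Huh-7 alone. By share all 10 passed, 6 of them through Huh-7 alone. The median difference by share was -4.93 for the members and -1.04 over all 442 miRNAs. As folds of share, Huh-7 exceeded C643 by 16.5 for miR-532-5p (15.2 to 17.9), 15.4 for miR-501-3p (13.9 to 17.1), 30.6 for miR-500a-3p (26.7 to 35.1) and 33.2 for miR-660-5p (27.8 to 39.8). The fold was larger for miR-502-3p, at 61.7 (46.9 to 82.8), and for miR-362-5p, at 109 (79.5 to 153), and smallest for miR-362-3p, at 7.41 (5.41 to 10.2). These last folds rest on 54, 40 and 62 reads in C643, and no wide interval was taken for any of the folds. Set against 3 reads in C643, the share in Huh-7 was 299-fold for miR-501-5p, 172-fold for miR-532-3p and 35.1-fold for miR-188-5p. These folds leave out the counting error of the Huh-7 reads, so they are not lower limits of an interval. If the 3 reads were taken after dividing the reads of C643 by 32, the folds fell to 9.33, 5.37 and 1.10.

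ES-2 and C643 differed less. By 1 or more on the deposited scale 5 of 10 members were higher in ES-2, miR-502-3p (C643 minus ES-2 -2.84), miR-362-5p (-2.56), miR-501-5p (-2.37), miR-188-5p (-1.92) and miR-532-3p (-1.26), against 25.4% of 351 miRNAs, and 0 were higher in C643. The background holds only miRNAs that reached 10, which the last 3 of these did not, and with the same limit on the members 2 of 7 were called, both of which reached it through ES-2 alone. By share 5 of 10 were higher in ES-2, against 19.0% of the 348 miRNAs that reached the limit by share. Only 6 members reached it. The called ones among them were miR-502-3p and miR-362-5p, the 2 that reached it through ES-2 alone. miR-501-5p, miR-188-5p and miR-532-3p had no read in C643 and 6 reads or fewer in ES-2. No size of difference can be given for miR-532-3p, which was at or under 3 reads in both. Set against 3 reads in C643, the shares of miR-501-5p and miR-188-5p in ES-2 were 9.84-fold and 6.56-fold. These folds leave out the counting error of the 6 and 4 reads in ES-2, so they are not lower limits of an interval. With the reads of C643 divided by 32, they were 0.308 and 0.205 and so no longer above 1. The fold of ES-2 over C643 by share was 6.74 for miR-502-3p (4.68 to 9.76) and 5.78 for miR-362-5p (3.71 to 9.04). Both folds rest on few reads in C643, 54 and 40, and no wide interval was taken for them. miR-532-5p (-0.13 on the deposited log2 scale), miR-501-3p (-0.44), miR-362-3p (-0.46), miR-660-5p (-0.76) and miR-500a-3p (-0.97) were not called, and the sign of the first changed to 0.13 by share.

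Across the members that passed the limit, the log2 differences had an SD of 0.75 between ES-2 and Huh-7 (9 members), 1.32 between C643 and Huh-7 (9) and 1.08 between C643 and ES-2 (7). Over all miRNAs tested the SDs were 3.94, 3.65 and 2.36. These SDs are a description, since 2, 5 and 3 of the members entered only through the library where they are high, and the pseudocount sets the differences of members at 0 in C643.

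Other miRNAs of the X chromosome lay on both sides. Of the 150 listed outside the 8 precursors, 28 passed the limit between ES-2 and Huh-7. By 1 or more, 15 of these were above Huh-7 in ES-2 and 5 were below it, with a median difference of 1.47 (by share 13 and 12 of 29, median 0.23). Over all miRNAs, 29.2% were above and 40.3% below (by share 18.5% and 60.6%). The 5 higher in Huh-7 were miR-450b-5p (-2.44), miR-421 (-1.76), miR-542-3p (-1.42), miR-452-3p (-1.30) and miR-450a-5p (-1.16), and each differed less than the median member. Between C643 and Huh-7, 32 passed, of which 17 favoured C643 and 7 favoured Huh-7, with a median of 1.47 (by share 15 and 11 of 33, median 0.70), beside 31.1% and 39.3% of all miRNAs (by share 22.2% and 50.2%). Between C643 and ES-2, 32 passed as well, of which 11 favoured C643 and 7 favoured ES-2, with a median of -0.07 that turned to 0.20 by share (12 and 6 of 32), beside 32.8% and 25.4% of all miRNAs (by share 38.8% and 19.0%).

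The miRNAs whose profile over the 3 libraries lay nearest to that of the summed cluster were sought among 127 miRNAs with at least 100 reads in each library, by the Euclidean distance of mean-centred log2 shares. The nearest outside the cluster was miR-421, also encoded on the X chromosome, at a distance of 1.13. It was followed by miR-455-3p (1.40), miR-182-5p (1.52), miR-196b-5p (1.54) and miR-1180-3p (1.60), while the median distance was 2.93. With only 3 libraries such a distance is a description of these levels. The 2 members abundant enough to enter, miR-501-3p and miR-532-5p, lay at 0.44 and 0.50 from the sum to which they contribute. miR-421 had 80.9, 110 and 709 RPM in C643, ES-2 and Huh-7, and so was also highest in Huh-7, by a smaller margin than the cluster.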

How the data were processed

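Small RNA was sequenced from C643, ES-2 and Huh-7 cells, with 1 library per line. RNA was isolated with TRIZOL and libraries were made with a NEXTflex Small RNA kit. The submitters' processing notes name cutadapt 1.14, Bowtie2 2.3.3, SAMtools 1.5, featureCounts 1.5.3, edgeR 3.18.1 and build hg38. Their settings, the treatment of reads matching several loci and any collapsing of copied reads were not given in the sources used here. The authors deposited a signal per miRNA locus, named CPM, in 2 tables (C643, and ES-2 with Huh-7). The columns summed to 959302, 1154552 and 612015, not to 1000000, so a further scaling may separate the libraries. The plan had assumed plain CPM.

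Each column was divided by its smallest value above 0, and 100% of its values were then whole numbers of reads (tolerance 0.01 reads). Values were summed by miRNA. Shares carry Wilson intervals, ratios exact conditional (Clopper-Pearson) intervals, and changes of arm ratio or cluster share the log odds interval. Deposited values were compared as log2(value + 1), a scale that shrinks the folds of scarce miRNAs. A miRNA entered when either library reached 10, and 1 on the log2 scale was the call. A library at 0 was set to 3 reads for folds between libraries. Scripts were tested on simulated reads.

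The members and lists were chosen with earlier results of these data known. The miRNAs named comprise all arms of the cluster, the 5 nearest profiles, miRNAs sharing a seed and cell markers. The higher X chromosome miRNAs were named after their values were seen. The read test and the wide intervals were chosen after seeing the data. Calculations used Python 3.11.15, numpy 2.4.6, pandas 2.3.3, scipy 1.17.1 and matplotlib 3.10.9. Other denominators, pseudocounts, limits, calls and summed arms were tried as alternatives.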

Additional observations from a re-analysis of the deposited data

Results flagged for a closer look

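The arm of miR-362 with more reads differed between the libraries. The share of its reads on the 5p arm was 39.2%, 75.8% and 90.5% in C643, ES-2 and Huh-7. It stands out because the 3p arm had more reads in C643 and the 5p arm in the other 2. The lead in C643 rests on 62 against 40 reads, and with the reads divided by 32 its interval (0.164 to 14.7) and that of the change between C643 and ES-2 (-5.73 to 1.17 on the log2 scale) include no difference. With 1 library per line the difference between lines was not tested.

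The leading arm of miR-500b also differed. The share on the 5p arm was 0% for C643 (0 of 30 reads), 25% for ES-2 (1 of 4 reads) and 77.2% for Huh-7 (125 of 162 reads). The difference was not tested, the ES-2 value rests on 4 reads, and the 5p sequence cannot be told apart from that of miR-500a-5p.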

How the results depend on the processing

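No paired analysis was possible because the labels number no replicates, and with 1 library per line none could be left out. Of the 66 recomputed values that answer a comparison, 43 were rated the same as the main value, a rating that allowed some change in size. The summed cluster, ES-2 minus Huh-7, was rated the same at -3.10 on the deposited log2 scale and -4.02 by share. So were the members higher in Huh-7 than in ES-2, which numbered 9 with a pseudocount of 10 and 8 at a call of 2. Against C643 they numbered 9 and 10. The share of the cluster in C643, ES-2 and Huh-7 was 0.0292%, 0.0424% and 0.741% with miR-21-5p left out of the denominator, 0.0119%, 0.0223% and 0.348% without miR-532-5p, and 0.0251%, 0.0357% and 0.546% with 1 locus per mature miRNA. With the deposited value over 1000000 it was 0.0351% for ES-2 and 0.303% for Huh-7, and with all arms it was 0.510% for Huh-7, where miR-532-5p then made up 28.8%. Huh-7 stayed highest throughout. The arm changes of miR-362 between ES-2 and Huh-7 (-1.60) and of miR-502 between C643 and Huh-7 (1.78) were under a call at 2, and with near-identical precursors summed by arm the latter reversed to -2.62, the cause of which was not tested. With at least 50 reads on each arm, miR-362 gave no value in C643 or ES-2. With the limit at 100 applied to the members, 6 were higher in Huh-7 than in ES-2 and 6 than in C643. The number higher in ES-2 than in C643 was 2 with a pseudocount of 10 and 3 at a call of 2. It was 2 with the limit of 10 applied to the members and 0 at 100, where fewer members entered. The SD of the members between C643 and ES-2 was 0.68 with a pseudocount of 10.

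The main limits are 1 library per line, the unknown scaling between columns and near-identical arms whose reads could be placed at several loci. Further limits are reads of C643 that may be copies of fewer molecules and the counts of 15 or fewer behind several values of ES-2.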
